A study of Mus musculus with 201 samples.

Results

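129S1/SvImJ is an inbred mouse strain of the 129 family, and its hippocampal transcript levels were set against those of the other classical inbred strains in the series. The 2 arrays labelled 129S1/SvImJ were compared with the 25 arrays of 12 other classical strains, out of 201 arrays of 100 strains in all. The recombinant BXD and CXB strains, the F1 hybrids and the wild-derived strains CAST/EiJ, PWD/PhJ, PWK/PhJ and WSB/EiJ were not among the comparison strains. Their arrays were still used in the linear model, to estimate the spread among pools and the sex and batch terms. These pools covered a wider range of ages than those of the classical strains. Some came from further animal sources, labelled Glenn, UAB, UMemphis and UTM JB. The genes of interest were those at which both 129S1/SvImJ arrays lay above the highest or below the lowest of the 25 other arrays.

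The samples were pools of whole hippocampi, hybridised to Affymetrix mouse expression arrays. The 129S1/SvImJ arrays were a female pool of 3 mice in batch 5 and a male pool of 3 mice in batch 6, both 66 days old and both from JAX. The comparison strains were A/J, AKR/J, BALB/cByJ, BALB/cJ, C3H/HeJ, C57BL/6ByJ, C57BL/6J, DBA/2J, KK/HIJ, LG/J, NOD/LtJ and NZO/HlLtJ, with 13 female and 12 male pools of 2 to 4 mice, aged 51 to 96 days with a median of 64. Of these 25 arrays, 10 came from mice of the same source as 129S1/SvImJ, 14 from the source labelled UTM RW and 1 from UTM DG. Nothing in the labels says whether the 2 pools of a strain shared litters or housing, and p-values therefore refer to the spread among pools. For 129S1/SvImJ sex and batch were joined, because its female was in batch 5 and its male in batch 6.

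Strains of the 129 family were the source of many early embryonic stem cell lines, so that many mutant mice carry stretches of 129 chromosome around the altered gene. Several 129 substrains are also known for a variable or incomplete corpus callosum and hippocampal commissure. The hippocampus holds pyramidal neurons, granule neurons of the dentate gyrus, interneurons and glia, and a dissection can include choroid plexus and fimbria.

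Levels are probe-set summaries from the PDNN model, a log-like score of which the log base is not given, so differences are given on that scale, in PDNN units, and none is turned into a fold change. The SD over probe sets was 0.63 to 0.80 units per array, not the 2 units that the labels state. Rescaled to an SD of 2, the differences of the 30 genes named below were 2.36 to 2.94 times as large. Both 129S1/SvImJ arrays matched their labels in sex. Xist, transcribed from the inactive X chromosome, was at 9.77 in the female and 7.79 in the male pool, and the Y-linked gene Eif2s3y was at 7.14 and 8.71. A marker each of pyramidal neurons (Neurod6), granule neurons (Prox1), interneurons (Gad1) and astrocytes (Gja1) was measured in both pools within the range of the other strains. Not all markers were inside it. Wfs1, also of pyramidal neurons, was above the range, at 10.11 and 10.04 against at most 9.94, and the myelin gene Mbp was narrowly above it. The actin control had a 3' to 5' signal ratio of 2.78 in the female and 1.62 in the male 129S1/SvImJ array, against 1.13 to 3.71 in the others. Arrays have no counting depth, and the number of arrays, 2 against 25, limits the precision.

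At most probe sets 129S1/SvImJ lay inside the range of the other classical strains, and a small set of transcripts stood apart in both of its arrays. Both arrays were outside the range at 560 of 45037 probe sets (1.24%), above it at 200 (0.444%) and below it at 360 (0.799%). The same rule, applied to each other strain with 2 arrays in its turn, gave from 78 probe sets for C3H/HeJ to 759 for KK/HIJ, with 576 for NOD/LtJ and 524 for NZO/HlLtJ. The 129S1/SvImJ count therefore lay among the higher counts and was not the highest.

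A limma contrast of 129S1/SvImJ with the mean of the 12 strains, with sex and batch in the model, called 1398 probe sets (3.1%), 744 higher (1.65%) and 654 lower (1.45%), at a Benjamini-Hochberg adjusted p under 0.05. Of these, 339 probe sets (0.753%) of 260 genes also met the range rule, 141 higher (0.313%) and 198 lower (0.44%). Quantile normalization gave 204 higher and 191 lower among 395 such probe sets, so the balance of directions depended on the scaling. Rescaling each array to an SD of 2 gave 194 higher and 152 lower among 346. With MAS5 values 299 of 871 calls were higher and 572 lower, so the balance among all calls depended on the summary. Of the 339 probe sets, 247 were also called and outside the range with quantile normalization, 258 after rescaling, 171 with RMA values and 90 with MAS5 values. The 221 remaining probe sets outside the range were not called. Some probe sets passed or missed the rule by very little. Tcea1, Prkar2a and Nmd3 were outside by 0.001 units, whereas Dcp1b and a second probe set of Tmod3 were inside by 0.001 units and Mon2 tied with the highest array.

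The female and the male pool differed by a median of 0.075 units over all probe sets, and by 0.044 units at the 339, which were chosen for both arrays lying on the same side. Over all probe sets the deviations of the 2 arrays from the median of the 25 others correlated at 0.49, a value across probe sets that share the arrays and the normalization. The female array left out, the contrast gave 308 calls and shared 293 with the 1398. The male array left out, it gave 557 and shared 470. The range rule then asked for 1 array outside the range instead of 2, and was met by 188 and 376 of these calls, 115 and 137 of them among the 339. With batch 5 or batch 6 alone, 11 and 13 probe sets were called, in a comparison of 1 array with the 12 or 8 other classical arrays of that batch. At 26 of the 30 genes named below, chosen for both arrays lying outside the range, the differences within batch 5 and batch 6 were under 1.4 times apart. Ywhaz was higher by 1.03 units within batch 5 and 0.87 within batch 6, and Lztfl1 was lower, at -1.13 and -1.16. At the other 4 genes, Snhg11, Syt13, Atm and Stox2, the sizes were at least 1.4 times apart, as for Snhg11 with 0.65 and 0.96 and Atm with -0.85 and -0.56 units.

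**Figure D1:**
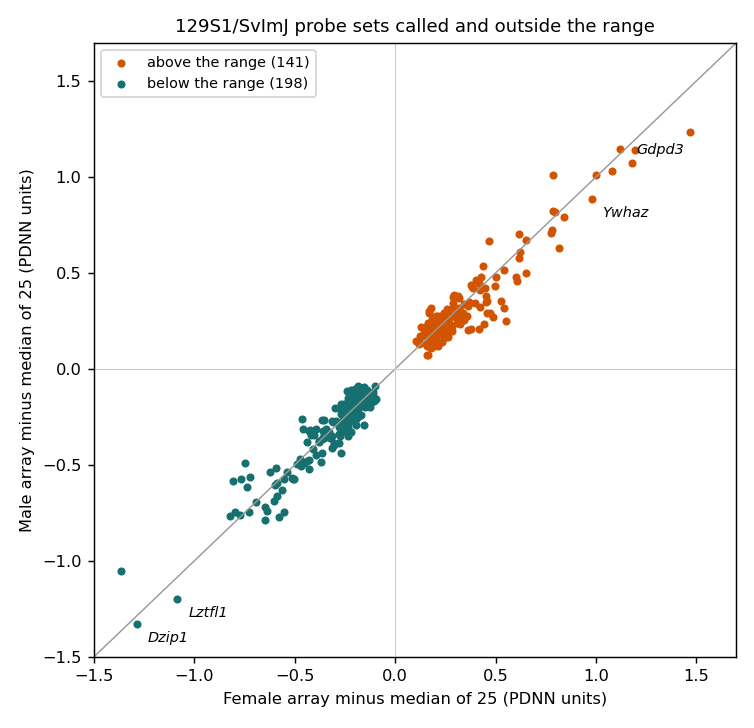
Deviation of the 129S1/SvImJ female array (x axis) and male array (y axis) from the median of the 25 other classical arrays, in PDNN units, for the 339 probe sets called and outside the range. The 141 higher and 198 lower probe sets lie close to the line of equal deviation, and the same sign in both arrays follows from the rule.

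The 15 genes with the largest rises and the 15 with the largest falls among these calls are described by what they do. Each is given through its most different probe set among those called and outside the range. The grouping serves the description, and no functional group was tested. In the plot of named genes the 129S1/SvImJ points lie outside the shaded range in every row, as the rule requires, and the width of the gap differs between genes. At 15 of the 30 genes, 10 higher and 5 lower, the 129S1/SvImJ arrays were also beyond all 199 other arrays of the series. Over all 339 probe sets this held at 104 (30.7%), and the 30 genes were chosen for large differences.

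**Figure D2:**
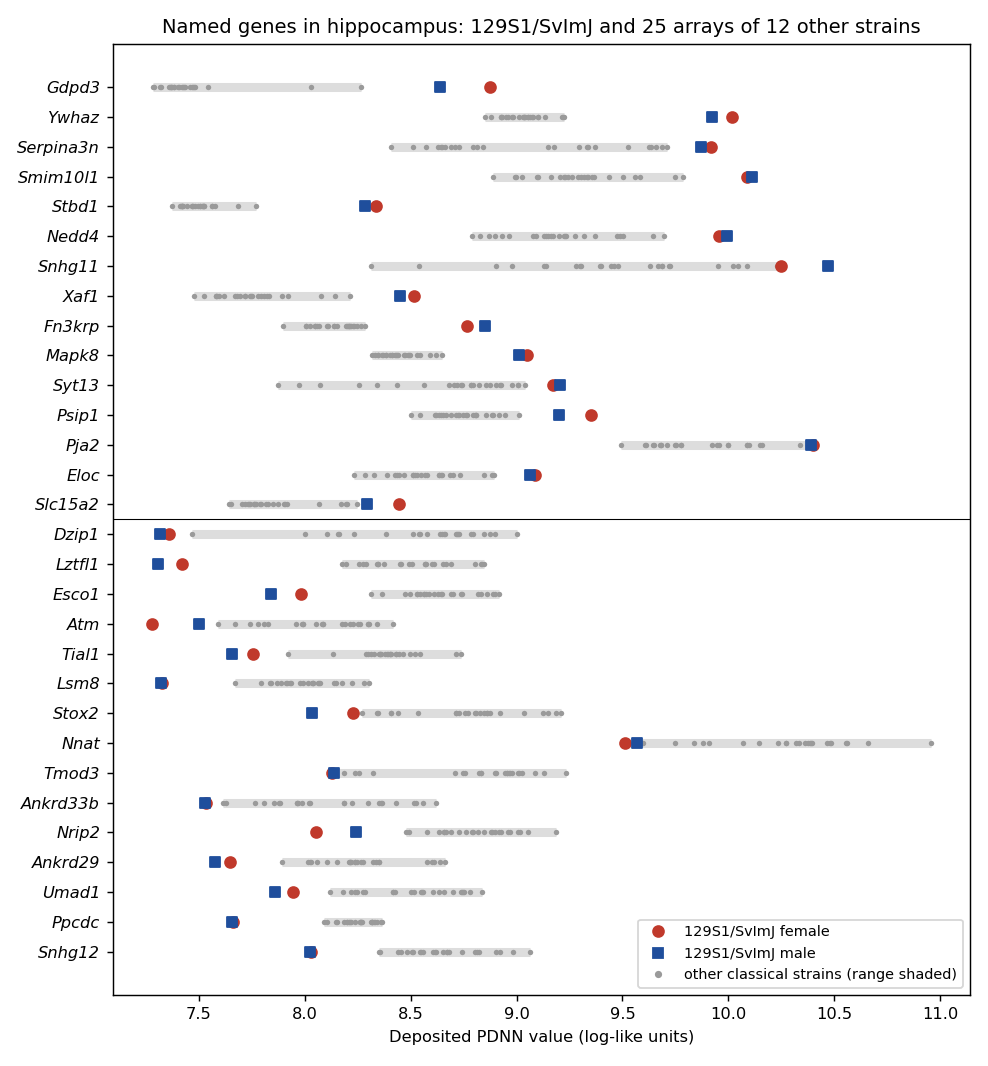
Deposited PDNN values (x axis, log-like units) of the 30 named genes, 15 higher above the line and 15 lower below it. Red circles are the 129S1/SvImJ female, blue squares the male, and grey points the 25 other classical arrays with their range shaded; the gap to the nearest other array runs from 0.001 units for Tmod3 to 0.753 for Lztfl1.

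Among genes of metabolism, Gdpd3, Stbd1 and Fn3krp were higher and Ppcdc was lower in 129S1/SvImJ. Gdpd3 encodes an enzyme of the glycerophosphodiester phosphodiesterase family that releases lysophosphatidic acid from lysophospholipids. Its level was 8.87 in the female and 8.64 in the male 129S1/SvImJ pool, against a lowest value of 7.28, a median of 7.41 and a highest of 8.26 in the 25 others. Only KK/HIJ, with a strain mean of 8.15, came near. The difference from the mean of the 12 strains was 1.30 ± 0.04 units (SE), with a limma adjusted p of 1.199e-46.

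Stbd1 encodes a glycogen-binding protein that ties glycogen to lysosomal breakdown. It stood at 8.33 and 8.29 in the female and male pools and at 7.37 to 7.77, median 7.50, in the others, again with KK/HIJ highest. The difference was 0.80 ± 0.04 units, with a limma adjusted p of 2.766e-32. Fn3krp encodes a kinase that repairs sugar-modified proteins. It was at 8.77 and 8.85 against 7.90 to 8.28, median 8.15, a difference of 0.66 ± 0.06 units (limma adjusted p = 4.733e-15). Gdpd3, Stbd1 and Fn3krp were each measured by 1 probe set, and their calls held under every alternative in which they were tested. The filter of a mean of 8 units or more removed Gdpd3 and Stbd1, whose medians in the others were 7.41 and 7.50, so they were not tested there.

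Ppcdc encodes phosphopantothenoylcysteine decarboxylase, an enzyme of coenzyme A synthesis. The female and male pools stood at 7.66 and 7.66, below the 8.09 to 8.36 of the others, median 8.26. The difference of -0.59 ± 0.05 units had a limma adjusted p of 6.821e-17. The other 2 Ppcdc probe sets gave 0.01 and -0.01 units and were not called.

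Signalling genes included Ywhaz and Mapk8, both higher. Ywhaz encodes the zeta member of the adaptor proteins that bind phosphorylated serine motifs, and is abundant in neurons. One of its probe sets was at 10.02 and 9.92 in 129S1/SvImJ, against 8.85 to 9.22, median 9.04, in the other strains. The arrays of the 2 groups were 0.7 units apart. The difference was 0.95 ± 0.07 units (limma adjusted p = 1.004e-19). Its 6 further probe sets gave differences of 0.08 to 0.47 units, all positive and none called.

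Mapk8 encodes a c-Jun N-terminal kinase of the stress response. It was at 9.05 and 9.01 in 129S1/SvImJ and at 8.32 to 8.65, median 8.43, in the others. The difference was 0.59 ± 0.07 units (limma adjusted p = 8.108e-10). Of the 4 remaining Mapk8 probe sets, 1 was called at 0.24 units, and the other 3 lay between -0.20 and 0.07 units and were not called.

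**Figure D3:**
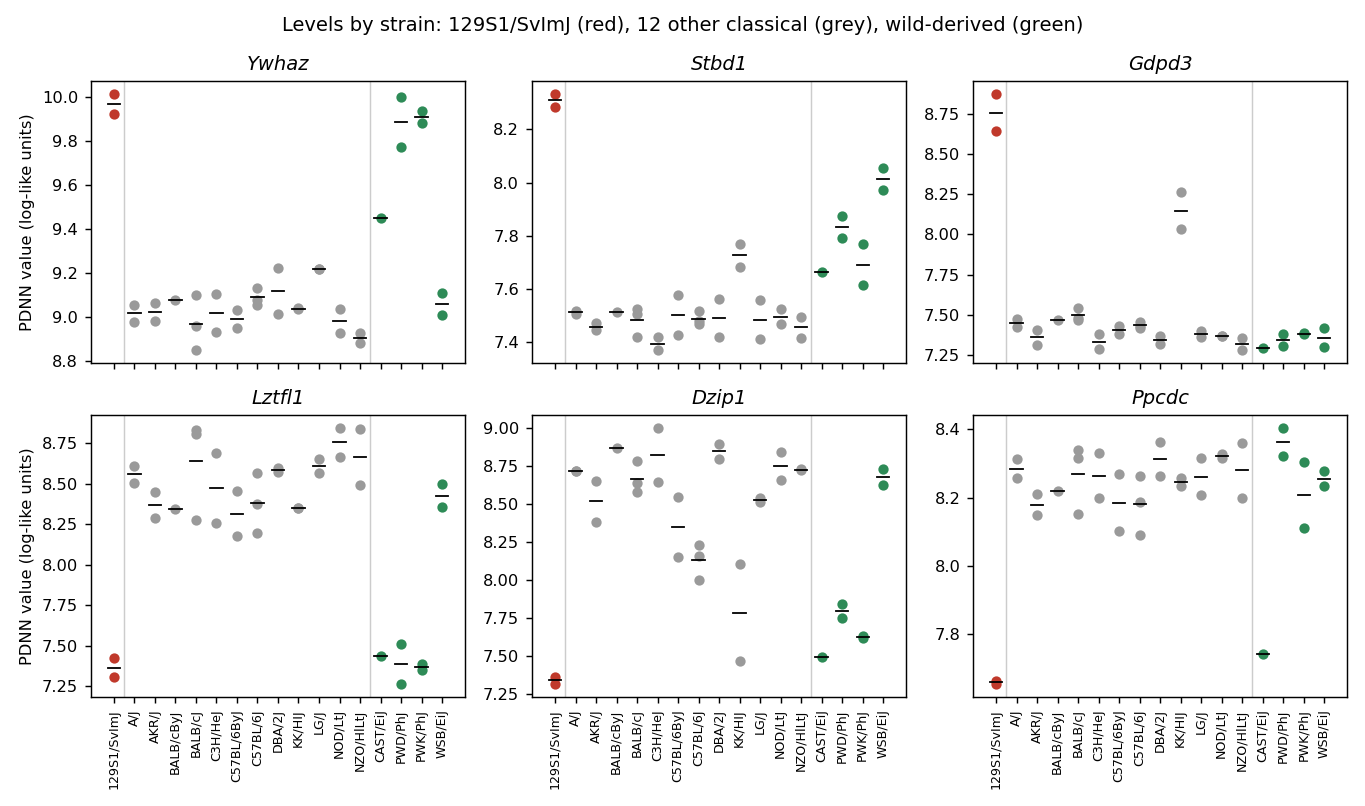
PDNN values (y axis, log-like units) of 6 genes by strain (x axis), with 1 point per array and a bar at the strain mean. 129S1/SvImJ (red) is above the 12 other classical strains (grey) at Ywhaz, Stbd1 and Gdpd3 and below them at Lztfl1, Dzip1 and Ppcdc, and the wild-derived strains (green) take different positions at each gene.

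Among the named genes, the widest falls were on 1 probe set each of Dzip1 and Lztfl1. Lztfl1 encodes a regulator of the protein coat that carries membrane proteins out of cilia, and Dzip1 a zinc-finger protein at the base of the cilium needed for Hedgehog signalling. Lztfl1 was at 7.42 and 7.31 in the female and male pools, against 8.17 to 8.85 with a median of 8.51 in the others. No other classical array came within 0.753 units. The difference was -1.12 ± 0.11 units (limma adjusted p = 1.769e-13).

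Dzip1 was at 7.36 and 7.32 in 129S1/SvImJ, against 7.47 to 9.00 with a median of 8.65. The lowest other array was KK/HIJ, and that strain's mean was 7.78. The difference was -1.24 ± 0.09 units (limma adjusted p = 1.359e-20). For both genes the fall was on a single probe set. The 4 further probe sets of Dzip1 gave -0.07 to 0.05 units and the 4 of Lztfl1 gave -0.29 to 0.16 units, and none was called.

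Psip1, Esco1 and Atm act on chromatin or in DNA repair, and the first rose while the others fell. Psip1, which tethers proteins to active chromatin, was at 9.35 and 9.20 against 8.50 to 9.01, median 8.75. Its difference was 0.54 ± 0.06 units, and a second Psip1 probe set met both criteria at 0.42 units. The remaining Psip1 probe set gave 0.08 units and was not called. Esco1, an acetyltransferase that acts on cohesin, was at 7.98 and 7.84, below the 8.31 to 8.92 of the others, median 8.63. Its difference was -0.72 ± 0.08 units, whereas the further Esco1 probe set gave 0.09 units and was not called. Atm, the kinase that responds to DNA breaks, was at 7.28 and 7.50 against 7.59 to 8.42, median 8.08. The difference was -0.71 ± 0.10 units on this probe set, and -0.09 units, not called, on the other. Without the arrays of high labelled RMA outlier value, the female among them, Atm was not called (limma adjusted p = 0.0597).

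Tial1 and Lsm8 act in RNA processing, and Snhg12 and Snhg11 are non-coding host genes. Tial1, an RNA-binding protein of stress granules, was at 7.76 and 7.65 against 7.92 to 8.74, median 8.40. A second of its 5 probe sets was called lower at -0.29 units, and the remaining 3 lay between 0.00 and 0.09 units and were not called. Lsm8, a component of the ring that binds the U6 spliceosomal RNA, was at 7.33 and 7.32 against 7.67 to 8.30, median 8.02, but its second probe set gave 0.00 units and was not called. Snhg12, a host transcript of small nucleolar RNAs, was at 8.03 and 8.03 against 8.35 to 9.06, median 8.62, with a difference of -0.58 ± 0.08 units on its only probe set. With the spread of the classical strains alone it was not called (limma adjusted p = 0.0693).

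Snhg11, another such host transcript, was at 10.25 in the female and 10.47 in the male pool. The 25 others ran from 8.31 to 10.23, median 9.46, so its margin was 0.019 units over a wide spread. The difference was 0.75 ± 0.21 units (limma adjusted p = 0.02811), and the second Snhg11 probe set was called higher at 0.49 units. Its call was lost when either 129S1/SvImJ array was left out, with limma adjusted p-values of 0.149 without the female and 0.447 without the male. With comparison arrays of the same animal source the difference was 0.43 units and was not called (limma adjusted p = 0.259).

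Nedd4, Pja2 and Eloc encode proteins of the ubiquitin system and were among the 15 rises. Nedd4, a ubiquitin ligase of membrane proteins, was at 9.96 and 9.99 against 8.79 to 9.70, median 9.17, with a difference of 0.75 ± 0.16 units. Pja2, a RING-type ubiquitin ligase of the protein kinase A pathway, was at 10.40 and 10.39 against 9.49 to 10.38, median 9.78. The Pja2 margin was 0.01 units, and a second probe set also met both criteria at 0.45 units. The remaining Pja2 probe sets gave 0.22 and 0.15 units and were not called. Eloc, elongin C, an adaptor of cullin ubiquitin ligases, was at 9.09 and 9.07 against 8.23 to 8.89, median 8.55, a difference of 0.54 ± 0.09 units, not called with RMA values (limma adjusted p = 0.0624). Without the female array Pja2 was not called (limma adjusted p = 0.263), and without the male array neither Pja2 (0.287) nor Nedd4 (0.171) was called.

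Serpina3n and Slc15a2 were also among the rises. Serpina3n, a secreted inhibitor of serine proteases that reactive astrocytes release, was at 9.92 and 9.87 in 129S1/SvImJ. The others ran from 8.41 to 9.71, median 8.84, with KK/HIJ highest at a strain mean of 9.67. The difference was 0.86 ± 0.09 units (limma adjusted p = 2.298e-13) on its only probe set. Slc15a2, a proton-coupled peptide transporter, was at 8.45 and 8.30 against 7.64 to 8.25, median 7.79, and was followed by C57BL/6ByJ with a mean of 8.22. A second Slc15a2 probe set was called higher at 0.80 units and overlapped the others, and the remaining one gave -0.22 units, not called.

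Xaf1, an interferon-induced partner of an inhibitor of apoptosis, gave calls in opposite directions. One probe set was at 8.52 and 8.45 against 7.48 to 8.22, median 7.74, a difference of 0.71 ± 0.09 units. The other was at 8.15 and 8.32 against 8.17 to 8.90, median 8.56, a difference of -0.35 ± 0.10 units (limma adjusted p = 0.03294). The level of the gene as a whole is therefore not given a direction. Plpp6, a lipid phosphatase, also gave calls in opposite directions, with -0.30 ± 0.08 and 0.32 ± 0.08 units on 2 probe sets that both met the range rule. Neither Plpp6 probe set was called once either 129S1/SvImJ array was left out. Opposite calls were not counted over all called genes.

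Among the remaining rises, Syt13, a member of the synaptotagmin family, was higher by 0.56 ± 0.11 units, and Smim10l1, a small membrane protein, by 0.84 ± 0.09 units. Without the male array Syt13 was not called (limma adjusted p = 0.0896). Among the remaining falls was Nnat, an imprinted gene expressed from the paternal allele, at 9.51 and 9.57 against 9.59 to 10.96, median 10.33. A/J had an array only 0.02 units above, and the difference was -0.67 ± 0.15 units (limma adjusted p = 0.001929), with an adjusted p of 0.241 without the female array. Tmod3, which caps actin filaments, fell by 0.66 ± 0.05 units with a margin of 0.001 units, since C57BL/6J and C57BL/6ByJ were also low. A second Tmod3 probe set was called lower at -0.31 units.

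Stox2, a winged-helix protein, fell by 0.67 ± 0.12 units, and Nrip2, a nuclear receptor partner, fell by 0.65 ± 0.14 units. Both further Nrip2 probe sets were called lower as well, at -0.14 and -0.22 units, whereas no further Stox2 probe set was called. Without the female array Nrip2 was not called (limma adjusted p = 0.14). Of the ankyrin-repeat genes, Ankrd33b fell by 0.66 ± 0.12 units on 1 of 3 probe sets, and Ankrd29 fell by 0.60 ± 0.11 units with its second probe set called lower at -0.42 units. Umad1, a gene of the endosomal sorting machinery, fell by 0.60 ± 0.05 units, while its 2 further probe sets gave 0.07 and 0.09 units and were not called.

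Many of these differences were not shared by all probe sets of the gene. Of the 30 named genes, 24 had further probe sets, and at 9 of the 24 at least 1 was called the same way. At 14 genes no further probe set was called, and at 1, Xaf1, it was called the opposite way. Over the 61 further probe sets, 43 had the sign of the named one, with 22 of 28 for the higher genes and 21 of 33 for the lower. Probe sets of 1 gene can match different ends or forms of its transcript, and probe sequences were not used here. The part of strain differences in the probed sequence in these values was not tested.

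**Figure D4:**
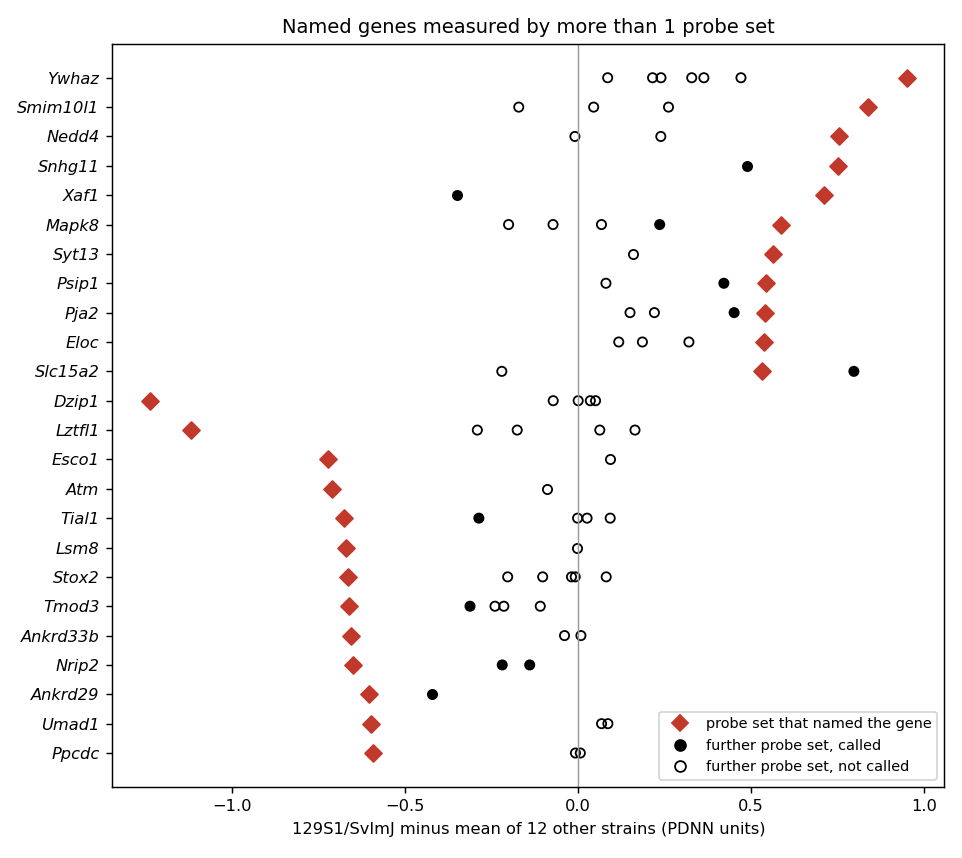
Difference between 129S1/SvImJ and the mean of the 12 other strains (x axis, PDNN units) for the 24 named genes with more than 1 probe set. Red diamonds are the probe sets that named the gene, and black points the further ones, filled where called; at Dzip1 the further probe sets lie between -0.07 and 0.05 units and at Lztfl1 between -0.29 and 0.16, while at Psip1, Pja2, Snhg11 and Ankrd29 at least 1 lies beside the diamond.

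With clone and predicted-gene names left aside, 9 genes met both criteria on at least 2 probe sets in the same direction, 6 higher and 3 lower. The clone-named gene 2900052N01Rik, left aside here, also did so, higher and with margins of 0.416 and 0.075 units. Beside Psip1 and Pja2, the higher ones were Cd109, Nup133, Ppm1a and Rab2a. Cd109, a surface protein that binds transforming growth factor beta, was at 8.33 and 8.22 on one probe set, against 7.65 to 8.11, and was higher by 0.45 ± 0.05 and 0.25 ± 0.04 units on its 2 probe sets. Nup133, a scaffold protein of the nuclear pore, was higher by 0.37 ± 0.06 and 0.30 ± 0.06 units on 2 of its 6 probe sets. Ppm1a, a phosphatase that acts on stress kinases, was higher by 0.31 ± 0.06 and 0.19 ± 0.05 units on 2 of its 8 probe sets. Rab2a, a small GTPase of the early secretory pathway, was higher by 0.27 ± 0.08 and 0.21 ± 0.06 units on 2 of its 7. The other probe sets of these genes did not meet both criteria.

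The lower ones included Zdhhc14 and Gng4. Zdhhc14, an enzyme that attaches palmitate to proteins, met both criteria on 3 of its 6 probe sets. On the one with the largest fall it was at 8.77 and 8.70, against 9.01 to 9.62 with a median of 9.27. The differences were -0.54 ± 0.09, -0.52 ± 0.08 and -0.24 ± 0.07 units, although these probe sets carry a suffix that marks possible cross-hybridisation. Gng4, a gamma subunit of heterotrimeric G proteins, fell by 0.47 ± 0.10 and 0.31 ± 0.07 units on 2 of its 3 probe sets. Cd109 and the 2 Zdhhc14 probe sets with the largest falls were called whichever 129S1/SvImJ array was left out, 1 of the 2 Nup133 probe sets lost its call without the male, the smallest Zdhhc14 fall lost its call when either array was left out, and so did both probe sets of Ppm1a and Rab2a. Gng4 kept 1 call without the female and none without the male. In these 9 genes the 129S1/SvImJ arrays cleared the range by 0.01 to 0.251 units.

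A stricter test set the 129S1/SvImJ strain value against the spread of the 12 other strain values, so that strains and not arrays were the units. It called 10 probe sets (0.0222%) by limma with Benjamini-Hochberg adjustment, 6 higher and 4 lower, against 2840 at an unadjusted p under 0.05. All 10 were also called in the first contrast and met the range rule. The 7 with a gene symbol were Ywhaz (adjusted p = 0.0002242), Ppcdc (0.000611), Stbd1 (0.001425), Sltm (0.004427), Fn3krp (0.007975), Mapk8 (0.009766) and Lztfl1 (0.02561). Sltm, an RNA-binding protein linked to transcription, was at 8.25 and 8.22 against 7.76 to 8.08, median 7.89, a difference of 0.37 units. The 3 others had no symbol in the annotation used, and the one with the largest difference was at 8.53 and 8.56 against 7.24 to 7.77. Gdpd3 (adjusted p = 0.06822) and Dzip1 (0.6378) did not pass. At both of them KK/HIJ had the strain mean nearest to 129S1/SvImJ, 8.15 at Gdpd3 and 7.78 at Dzip1. At Dzip1 C57BL/6J was low as well, with a mean of 8.13 against a median of 8.65 over the 25 arrays. With the strain test, comparison arrays of the same animal source alone gave 0 calls, against 2829 at an unadjusted p under 0.05.

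The wild-derived strains and the recombinant panels were not used by the range rule, and they show where else a 129S1/SvImJ level occurs. Of the 339 probe sets, 104 (30.7%) had both 129S1/SvImJ arrays beyond all 199 other arrays. On the same side of the classical range lay CAST/EiJ at 57 (16.8%), PWK/PhJ at 49 (14.5%), PWD/PhJ at 45 (13.3%) and WSB/EiJ at 22 (6.49%). On the opposite side lay CAST/EiJ at 40, PWD/PhJ at 11, PWK/PhJ at 9 and WSB/EiJ at 1. Over all probe sets CAST/EiJ, which has 1 array, was above the classical range at 8.51% and below it at 6.15%. The corresponding shares were 2.31% and 2.79% for PWD/PhJ, 2.17% and 2.36% for PWK/PhJ and 0.451% and 0.797% for WSB/EiJ, each with 2 arrays. At least 1 BXD array passed the 129S1/SvImJ value nearer the classical range at 158 probe sets (46.6%), and at least 1 CXB array at 68 (20.1%). Each panel holds many arrays, of which 1 was enough, and no share over all probe sets was computed for the panels. No test was made of these shares.

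At single genes the wild-derived strains differed. Ywhaz was at 9.89 in PWD/PhJ and 9.91 in PWK/PhJ, close to 129S1/SvImJ, and at 9.06 in WSB/EiJ, inside the classical range. Lztfl1 was at 7.43 in CAST/EiJ, 7.39 in PWD/PhJ and 7.37 in PWK/PhJ, as low as 129S1/SvImJ, while WSB/EiJ was at 8.43. Mapk8 was higher in PWK/PhJ (9.19) than in 129S1/SvImJ, and at 8.83 in PWD/PhJ. Stbd1 was beyond the classical range in WSB/EiJ (8.01) and PWD/PhJ (7.83), still below 129S1/SvImJ. Gdpd3, by contrast, was between 7.25 and 7.62 in every wild-derived and BXD array, and Ppcdc was low only in CAST/EiJ (7.74) among these 4 strains.

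The genes were spread over all chromosomes, and some lay close together. Of 18021 tested genes with a chromosome, 259 (1.44%) were called and outside the range. Chromosome 18 had the highest share, 13 of 459 genes (2.83%), followed by chromosome 9 with 28 of 1002 (2.79%), 10 higher and 18 lower. Chromosome 10 had the lowest, 4 of 860 (0.465%). Within 1 Mb of another such gene lay 87 genes, in 35 groups, of which 19 held both higher and lower members, 12 only lower and 4 only higher ones. No test of clustering was made.

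The largest group was on chromosome 9, with 7 of the 37 tested genes in 1.53 Mb. Slc37a4, the glucose-6-phosphate transporter, was higher by 0.39 ± 0.06 units and Fxyd2, a regulator of the sodium pump, by 0.44 ± 0.05 units. Bace1, the beta-secretase that cleaves the amyloid precursor protein, was at 8.18 and 8.21 against 8.31 to 8.54, median 8.44, and fell by 0.25 ± 0.04 units. H2ax, the histone variant marked at DNA breaks, fell by 0.27 ± 0.07 units, Cep164, a protein of the distal appendages of the centriole, fell by 0.28 ± 0.05 units, Tmem25 fell by 0.40 ± 0.06 units and Ccdc84 fell by 0.23 ± 0.07 units.

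Elsewhere on chromosome 9, Lztfl1 lay in a group of 4 genes that were all lower, among 17 tested genes in 1.11 Mb. The others were Lars2, the mitochondrial leucyl-tRNA synthetase (-0.32 ± 0.05 units), Limd1, a LIM-domain scaffold protein (-0.35 ± 0.06 units), and Ppp2r3d, a regulatory subunit of protein phosphatase 2A (-0.25 ± 0.05 units). On chromosome 4, Snhg12 lay within a span of 0.045 Mb with the like-named host gene Snhg3, which fell by 0.18 ± 0.04 units. On chromosome 5, Stbd1 lay near Fam47e and Rchy1, each higher by 0.26 units, and on chromosome 11 the neighbouring lipoxygenase genes Aloxe3 and Alox8 fell by 0.23 ± 0.05 and 0.22 ± 0.05 units. Of the genes named in these neighbourhoods, H2ax, Ccdc84, Snhg3, Rchy1 and Aloxe3 were not called once either 129S1/SvImJ array was left out, and Cep164, Ppp2r3d and Alox8 were not called without the male. On chromosome 2, Snhg11 and Nnat lay in 1 group and moved in opposite directions.

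Genes of cell types and pathways were followed through 29 lists, each gene through its brightest probe set. Over 18193 genes read this way, 316 were called higher and 280 lower (3.28% together), with a median difference of -0.01 units. Of all these genes, 135 were called and met the range rule. Of 310 list genes measured, 14 were called higher and 11 lower (8.06%), and 5 of these met the range rule. The lists include genes chosen because they vary between strains, of which 4 of 13 were called higher and 1 lower. Most of these calls needed both arrays. With either the female or the male array left out, most of these list genes were no longer called. Wfs1, Pam and Prune2 were called in both cases, Pttg1 only without the female, and Neurog2, Sema3c, Per1, Lct and Cort only without the male.

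Among pyramidal neuron genes, 2 of 12 were called higher and 2 lower, with a median difference of 0.09 units. Wfs1, an endoplasmic reticulum protein that marks field CA1, was at 10.11 and 10.04 in 129S1/SvImJ, against 9.42 to 9.94 with a median of 9.61. It was beyond the range of the others, and higher by 0.47 ± 0.07 units (limma adjusted p = 3.665e-06). Man1a, a mannosidase of the Golgi, was higher by 0.30 ± 0.09 units, whereas Spink8 fell by 0.40 ± 0.10 units and Grik4, a kainate receptor subunit of field CA3, fell by 0.15 ± 0.04 units, all 3 inside the range. The members therefore did not move one way. Calb1, the calcium-binding protein calbindin of granule and CA1 neurons, was called on a probe set other than its brightest, at 8.94 and 9.00 against 7.97 to 8.84, and Gria2, an AMPA receptor subunit, likewise at 10.96 and 10.95 against 10.36 to 10.92. Neither was called once either 129S1/SvImJ array was left out.

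Among genes of axon guidance and the hippocampal commissure, 1 of 20 was called higher and 1 lower, with a median difference of -0.01 units. L1cam, an adhesion molecule of growing axons, was at 8.77 and 8.73 against 8.82 to 9.33, median 9.01, below the range. It fell by 0.24 ± 0.06 units (limma adjusted p = 0.01799), and the call was lost once either 129S1/SvImJ array was left out. Sema3c, a secreted guidance cue, was higher by 0.27 ± 0.06 units inside the range, and was not called without the female array. Draxin, Dcc, Gap43, Epha4, the Robo and the Slit genes were not called, with differences from -0.34 units for Gap43 to 0.28 for Epha4. In adult tissue these levels say nothing of the time at which the commissure forms.

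In the list of adult neurogenesis, Neurog2, a proneural transcription factor, was the single called gene of 15. It was at 7.26 and 7.31 against 7.32 to 7.86, and fell by 0.22 units. Of 9 corticosteroid receptor and response genes, Fkbp5, a co-chaperone of the glucocorticoid receptor, was called higher, at 9.30 and 9.32 against 8.75 to 9.26, and Per1, a clock gene that corticosteroids induce, fell by 0.37 ± 0.09 units. Nr3c1 and Nr3c2, the glucocorticoid and mineralocorticoid receptor genes, were not called, at 0.10 and 0.25 units. Gabra5 was the single one of 9 GABA-A receptor genes called (0.28 ± 0.08 units) and Htr1a the single one of 11 serotonin and dopamine receptor genes (0.23 ± 0.07 units), both higher and inside the range, and both lost once either 129S1/SvImJ array was left out.

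Myelin genes lay to one side. All 11 measured members of the oligodendrocyte list had positive differences, with a median of 0.25 units, and 2 were called. With quantile normalization the median was 0.19 units and 1 was called. Mal, a lipid-raft protein of myelin, was higher by 0.48 ± 0.14 units and Cldn11, the tight-junction protein of myelin, by 0.39 ± 0.11 units, and both calls were lost once either 129S1/SvImJ array was left out. Mbp, myelin basic protein, was at 11.92 and 11.94 against 11.32 to 11.92, beyond the range by less than 0.01 units and not called (0.21 units, limma adjusted p = 0.1128). The mean over the list was 9.82 and 9.77 in the female and male pools, within 9.09 to 9.97 in the others. In bulk tissue a difference in the number of cells of a type and one in the RNA of each cell cannot be told apart.

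Genes of the choroid plexus also lay to one side, and none was called. All 11 had positive differences, with a median of 0.23 units and a largest of 0.76 units for Ttr (limma adjusted p = 0.5101). The mean of the list was 8.81 and 8.71 in 129S1/SvImJ, within 7.73 to 9.00 in the others, and the defining markers Ttr, Kl, Folr1 and Cldn2 were measured in both pools. The meningeal list had a median difference of -0.13 units with Aebp1 called lower, and the thalamic list of -0.05 units with Ramp3 called higher. These contents were inside the range of the other arrays, and their part in the results was not tested.

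All 12 immediate early genes had negative differences, with a median of -0.12 units, and none was called. The mean of the list was 8.25 and 8.24 in the 2 pools, against 8.23 to 8.70 in the others. Of the other cell types, astrocytes (0.13 units), endothelium (0.07), interneurons (-0.02) and dentate granule neurons (0.10) had small median differences, and of these 4 lists only the granule neuron gene Lct was called, higher by 0.33 units. Microglial genes had a median of -0.07 units, and Aif1 fell by 0.24 units.

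**Figure D5:**
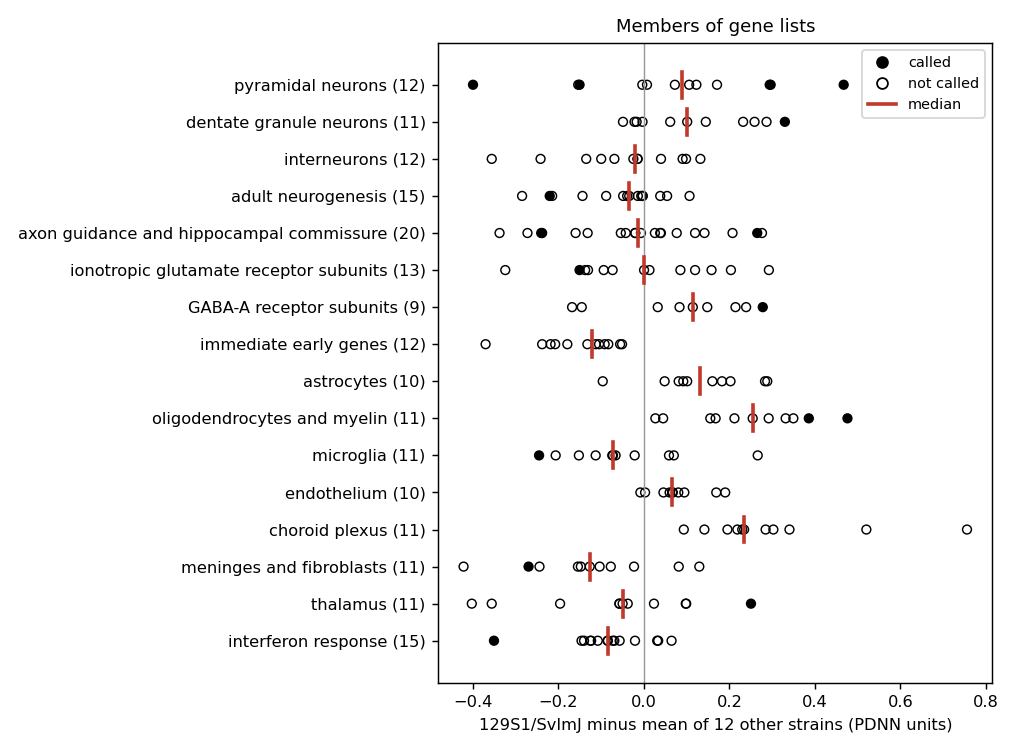
Difference between 129S1/SvImJ and the mean of the 12 other strains (x axis, PDNN units) for members of 16 gene lists, with the number measured in parentheses. Filled points are called, open points are not, and red bars are medians, from -0.13 units for meningeal genes to 0.25 for myelin genes.

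Genes known to vary between the classical strains gave 5 calls among 13 members, a list chosen because its members differ between strains. Pam, an enzyme that amidates neuropeptides, was higher by 0.54 ± 0.07 units, Cap1, a regulator of actin, by 0.55 ± 0.15 units, and Glo1, which detoxifies methylglyoxal, by 0.38 ± 0.10 units, all inside the range. Prune2 was at 9.68 and 9.67 against 8.68 to 9.63, beyond the range, and higher by 0.48 ± 0.08 units. Pttg1, the mitotic protein securin, fell by 0.52 ± 0.12 units inside a range of 8.03 to 10.42. No member of the MHC class I, complement, inflammasome, respiratory chain, redox or potassium channel lists was called, and of the interferon-response list only Xaf1 was. Cort fell by 0.18 units among 14 neuropeptide precursors, and Rps6 fell by 0.21 units among 6 ribosomal protein genes.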

How the data were processed

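Each probe set has a score per array, deposited by the authors in 3 forms (PDNN, RMA and MAS5); raw intensities and probe sequences were not used here. Per the labels each PDNN array was adjusted to average 8 units with a spread (SD) of 2; in the deposited values the SD was 0.63 to 0.80. Software versions behind these scores: not given in the sources used here. Of 45101 probe sets 64 controls were left out, and 34945 of the 45037 tested had 1 gene symbol, 932 several and 9160 none.

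Groups came from the strain labels. A technical duplicate of an F1 hybrid was averaged with its partner and an array of mixed sex left out, which gave 199 columns. Strain, sex and batch were terms of 1 linear model (107 terms, 92 residual degrees of freedom), fitted to the PDNN scores by limma 3.58.1 in R 4.3.3 and data.table (version 1.17.8). 129S1/SvImJ was compared with the unweighted mean of 12 strain terms by limma's moderated test, two-sided, and its strain value with the 12 strain values in a second limma fit, which assumes that the lone strain varies like the rest. Adjusted p-values are Benjamini-Hochberg values over the 45037 probe sets, with a threshold of 0.05, and SE is that of the limma contrast. Tested on simulated data, the first contrast recovered 64.2% of differences of 0.25 units, 98.5% of those of 0.5 and 100% of those of 1. It made 11 false calls, 5.91% of its calls. The simulated errors were independent normal values from the same fitted model, so the recovery describes the model and not the real arrays.

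The members, the gene lists and the tests were chosen with earlier results of these data known. Named genes were the 15 largest differences in each direction among calls outside the range with 1 symbol that is no clone or predicted-gene name, with list members, genes with 2 such probe sets and genes within 1 Mb of each other as further groups. Genes singled out beyond these (Plpp6, Sltm and those at the edge of the range) were chosen after their values were seen. Alternatives were other summaries, filters, scalings, covariates and subsets of arrays, and each comparison array and strain left out in turn. Headers and labels disagreed for 7 arrays, 1 of a comparison strain and 0 of 129S1/SvImJ, and labels were used. The values of 1 lower gene with 2 such probe sets are not reported here.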

Additional observations from a re-analysis of the deposited data

How the results depend on the processing

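By replicate number, no paired analysis was possible because the labels give none that the strains share, but strains could be matched by sex and batch. Against the 3 comparison strains with a female in batch 5 and a male in batch 6, AKR/J, LG/J and NZO/HlLtJ (chosen after seeing the data), there were 1370 calls, 869 of them shared with the 1398, with 951 outside the range of 6 arrays and 0 in the strain test (1987 at an unadjusted p under 0.05). Of the 30 named genes 29 were called, all but Pja2. The other alternatives are set against 1398 calls, 339 of them outside the range and 10 in the strain test. RMA values gave 1074 calls (771 shared), 341 outside the range (171 shared) and 20 in the strain test, where leaving out the columns whose values matched other strains as well gave 25. MAS5 values gave 871 (481 shared), 215 (90 shared) and 67. A mean of 8 units or more gave 185 calls outside the range (176 shared), and quantile normalization and rescaling to an SD of 2 per array (the latter chosen after seeing the data) gave 19 and 17 in the strain test. Leaving out the batch term gave 865 calls. Leaving out arrays with a labelled RMA outlier value of 0.1 or more, the 129S1/SvImJ female among them, gave 413 calls and 36 in the strain test. With the spread of the classical strains alone there were 352 calls and 142 outside the range. Comparison arrays of the same animal source gave 2551 (1261 shared), 1182 (324 shared) and 0, with 29 of the 30 named genes called, and batches 5 and 6 alone 11 and 13 calls, all of them outside the range of fewer arrays. With 1 of the 2 129S1/SvImJ arrays left out the counts were 308 to 557, 188 to 376 and 22 to 42. Without any one other array they were 1213 to 1656, 321 to 396 and 9 to 17, and without any one other strain 1227 to 1656, 335 to 423 and 9 to 14. The cause of these shifts was not tested, beyond the fewer arrays that some settings leave. The deposited value table gave the same counts as the PDNN table, and the counts under other alternatives stayed within 1.5 times those above.

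No named gene changed direction under any alternative, and 3 of the 30 were called under every one in which they were tested. Apart from the single batches, 9 lost the call under at least 1 alternative. Among list genes the one change of direction was Ramp3, at -0.12 with MAS5 values. Of 93 further probe sets (genes with 2 probe sets, neighbours and the strain test) 37 were called without the female and 40 without the male array, and Atp6v1c1 alone changed direction, at 0.0568 with RMA values and 0.0599 without the mismatched columns. The limits are 2 pooled arrays of 129S1/SvImJ in different batches and of different sex, a single strain of the 129 family, probe sets that often disagree, and an unknown log base. A strain difference here is one between these pools, and alleles and conditions shared by a strain's pools cannot be told apart.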
